A study of Mus musculus with 6 samples.

Results

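The 10 genes described here are Egr1, Egr2, Egr3, Nr4a1, Nr4a2, Nr4a3, Ier2, Ier3, Dusp1 and Zfp36, which belong to the immediate-early genes. They were chosen by name, and every probe set whose annotation gives exactly 1 of these symbols was taken. This gave 19 probe sets of the 45037 that were tested, and the 10 genes stand among 18193 genes named by a probe set of their own. The arteries came from NTG mice, which carry no transgene, and from SMC-IRF9-TG mice, which carry mouse IRF9 cDNA behind a minimal SM22α promoter active in smooth muscle cells. The transgenic mice came from a single line, chosen for its IRF9 level. All mice were aged 10 to 12 weeks and carry the strain label C57BL/6, and the methods name C57BL/6J for the embryos that received the transgene. Both groups underwent wire injury of the carotid artery, and the vessels were collected at 14 days, so no uninjured artery serves as a baseline. Each group had 3 samples. A sample pooled 3 to 5 vessels, and its RNA (400 ng) was put on an Affymetrix array of its own. The labels do not say which animals entered each pool, and the p-values reflect only how far these pools varied. A pool mixes all cells of the vessel wall, so a change in the share of a cell type and a change of RNA per cell cannot be told apart.

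Immediate-early genes are transcribed within minutes of a growth factor, stretch or injury signal, without new protein synthesis, and their mRNAs are short-lived. ERK signalling reaches several of them through serum response factor (SRF), which binds the CArG box together with ternary complex factors, and calcium and cAMP signals reach others through CREB, which binds the cAMP response element (CRE). The products are mostly regulators: EGR1, EGR2 and EGR3 are zinc-finger transcription factors, NR4A1, NR4A2 and NR4A3 are orphan nuclear receptors, DUSP1 is a phosphatase that switches off MAP kinases, and ZFP36 (tristetraprolin) promotes decay of mRNAs with AU-rich elements. In the artery wall EGR1 is known as an early activator of growth factor genes after injury, and NR4A1 and NR4A2 are known to restrain smooth muscle growth.

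The promoter table of RefSeq (build GRCm38.p6) was searched on both strands for the CArG box, for the CRE (TGACGTCA) and for an EGR site (GCGGGGGCG) in windows from 250 bases before to 50 bases after each start. Windows were taken for 7 of the 10 genes, so Egr1, Egr3 and Ier2 were not searched. The stretches below are shown because they match kinds of site through which this pathway is known to act. Capitals mark the match, and each stretch is written 5′ to 3′ on the strand of its gene.
Egr2 CArG box in the window of 1 start, plus strand, chr10:67537484-67537513: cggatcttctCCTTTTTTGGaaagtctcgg
Egr2 CArG box in the windows of 3 further starts, plus strand, chr10:67537787-67537816: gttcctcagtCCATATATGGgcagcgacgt
Zfp36 CArG box, minus strand, chr7:28379237-28379326: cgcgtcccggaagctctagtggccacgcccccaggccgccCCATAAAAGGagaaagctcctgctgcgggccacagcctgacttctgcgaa
Zfp36 EGR site, minus strand, chr7:28379285-28379373: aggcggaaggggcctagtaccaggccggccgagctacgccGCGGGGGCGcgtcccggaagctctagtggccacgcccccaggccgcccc
Nr4a1 EGR site, plus strand with the match on the other strand, chr15:101266746-101266834: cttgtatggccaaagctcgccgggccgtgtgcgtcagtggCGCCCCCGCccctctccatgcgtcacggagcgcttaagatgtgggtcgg
Dusp1 CRE, minus strand, chr17:26508568-26508655: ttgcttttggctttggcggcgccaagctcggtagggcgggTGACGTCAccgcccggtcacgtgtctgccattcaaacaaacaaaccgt

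Of all 32544 promoter windows, 1.64% held a CArG box, 1.80% a CRE and 2.93% this EGR site. Among the 7 genes searched, a CArG box lay in windows of 2 (Egr2 and Zfp36). A CRE lay in the window of Dusp1 and an EGR site in those of Zfp36 and Nr4a1. The NBRE (AAAGGTCA), the site that NR4A receptors bind, and a pair of GAAA repeats with 2 bases between them, as in sites of interferon regulatory factors, were in none of these windows and in 1.52% and 3.45% of all windows. A match of letters is a description and does not show that a factor binds there.

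The deposited values were log2 levels made by the authors with RMA. This method corrects background, equalizes the arrays and combines the probes of a set. The deposited arrays were still not equal, with lower quartiles of 2.57 to 2.66 in NTG and 2.33 to 2.41 in SMC-IRF9-TG. Smooth muscle markers were at hand in all arrays, with Acta2 at a mean of 13.5 and no marker of 8 under the lower quartile of the arrays. NTG pool 2 showed the most loss of 5′ signal, where the 3′ probes of the Actb control exceeded its 5′ probes by 7.09 log2 units, against 1.56 to 3.04 on the other arrays. Xist was at 9.94 and 9.50 in NTG pools 1 and 2 and at 2.94 to 4.08 in the rest, although the study states that its mice were male. Poly-A control transcripts read lowest in pools 1 and 2 of SMC-IRF9-TG (means of 5.03 and 4.55) and 7.53 to 11.7 elsewhere. Values without single pools are given where they change a result.

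To ask whether the immediate-early programme differed between injured arteries with and without smooth muscle IRF9 overexpression, the groups were compared with limma. Adjusted p-values (Benjamini-Hochberg) cover every probe set tested, and a gene passed where its value was under 0.05. None of the 10 genes passed, and none of their 19 probe sets did. Over all probe sets 2.37% were called higher and 0.373% lower in SMC-IRF9-TG. Over all genes, each taken by its brightest probe set, the shares were 3.11% and 0.511%, so that 0 calls among 10 genes is near the background. At an unadjusted p under 0.05, 3 of the 10 genes differed (Egr1 and Egr2 higher, Nr4a2 lower), where 24.7% of all genes and 22.3% of all probe sets did. The methods' t-test gave the same count of 3 at that level and 0 after adjustment. The differences of the 10 genes ranged from -0.59 to 1.03 log2 units with a median of 0.31, against -0.05 over all genes.

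**Figure D1:**
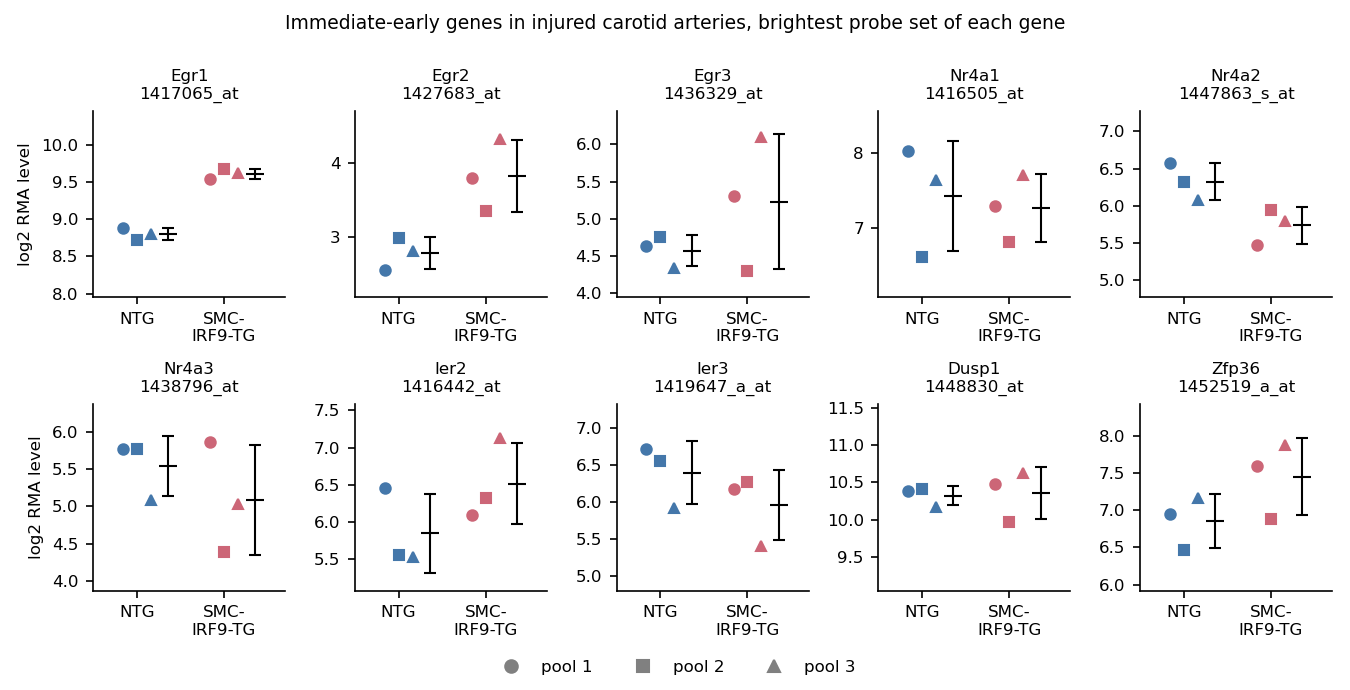
Log2 RMA level (y axis, 2.5 log2 units in each panel) of the brightest probe set of each of the 10 genes by group (x axis), with 3 pools in each. Symbols mark the pool, and error bars beside them show mean ± SD (n = 3). The pools of Egr1 lie within 0.16 of each other in each group, whereas those of Egr3 in SMC-IRF9-TG spread over 1.80.

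Egr1 showed the smallest spread of the 10 genes and the lowest p. Probe set 1417065_at read 8.88, 8.72 and 8.80 in NTG (pools 1, 2 and 3, in this order throughout) and 9.54, 9.67 and 9.62 in SMC-IRF9-TG. The lowest SMC-IRF9-TG pool lay above the highest NTG pool, and the gap between the groups was larger than the range within either. The means were 8.80 ± 0.08 and 9.61 ± 0.07 (SD, n = 3), a difference of 0.81 log2 units or 1.75-fold (standard error 0.18, 95% interval 0.40 to 1.22, adjusted p = 0.0541 from limma). An exact permutation test gave p = 0.1, the smallest 2-sided value that 3 pools against 3 allow. The study put this probe set on a list of genes that it drew from these same samples, which is therefore no independent evidence of its direction. The adjusted p fell under the threshold after centring each array on its median (difference 0.90, adjusted p = 0.037), with a trended and robust variance prior (adjusted p = 0.049) and when genes replaced probe sets as the unit of the fit (adjusted p = 0.0285). It rose to 0.174 after quantile normalization, where the difference was 0.55. Leaving out any 1 pool gave differences of 0.77 to 0.85, none of which passed. With a block for the pools of high Xist the difference was 0.81 (adjusted p = 0.169), and with one for the pools of low poly-A signal it was 0.82 (adjusted p = 0.668).

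The level of a probe set itself moved with the difference on these arrays. The 642 probe sets whose mean lay within 0.5 log2 units of that of Egr1 had a median difference of 0.24, with quartiles of -0.09 and 0.57, and 13.7% of them differed by more than Egr1 did. After quantile normalization their median was -0.03. Dim probe sets leaned the other way, with a median of -0.19 for levels from 3 to 3.5, where Egr2 lies.

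**Figure D2:**
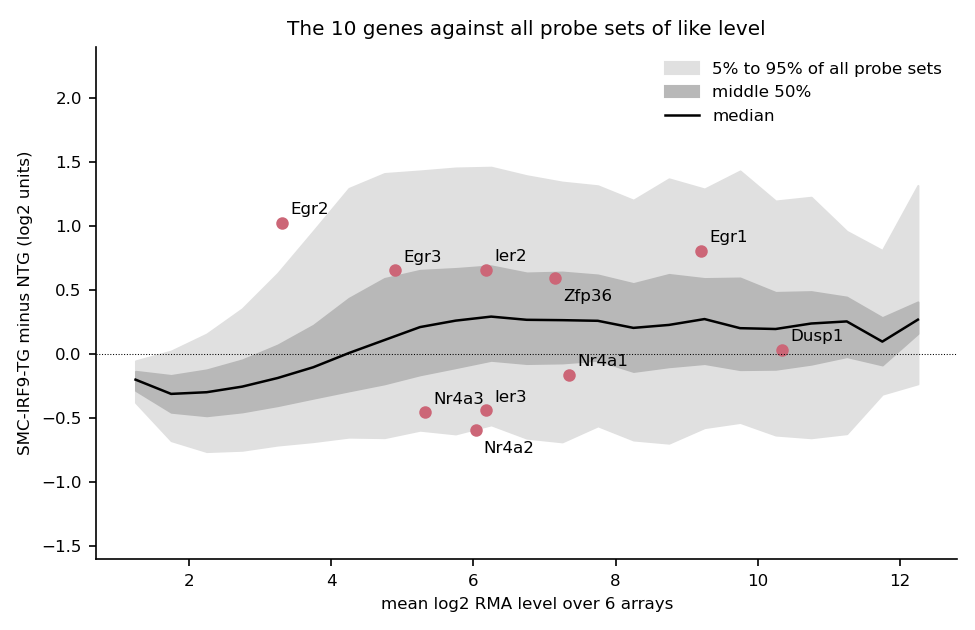
Difference between the groups (y axis, log2 units) against the mean log2 level over 6 arrays (x axis). The line and bands give the median, the middle 50% and the 5% to 95% range of all probe sets in steps of 0.5 log2 units, and the points are the brightest probe sets of the 10 genes. Egr2 lies above the 5% to 95% range of its level and Nr4a2 just below that of its own, and the other 8 genes lie within theirs.

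Egr2, which is known for its part in myelinating glia and in lymphocytes, was measured just under the median level of all probe sets and less evenly. Probe set 1427683_at read 2.57, 2.99 and 2.82 in NTG and 3.79, 3.35 and 4.32 in SMC-IRF9-TG. The groups did not overlap, although the SMC-IRF9-TG pools spread over 0.97. The difference was 1.03 (standard error 0.27, 95% interval 0.41 to 1.65, adjusted p = 0.088 from limma). The other probe set of the gene, 1427682_a_at, read 2.63, 3.84 and 2.42 in NTG and 3.51, 2.59 and 4.13 in SMC-IRF9-TG, so its groups overlapped, with a difference of 0.45 (adjusted p = 0.569). Egr3, a close relative that is induced with Egr1 in many cells, read 4.63, 4.75 and 4.34 in NTG and 5.30, 4.29 and 6.09 in SMC-IRF9-TG by 1436329_at. Here SMC-IRF9-TG pool 3 was the highest of all arrays and pool 2 the lowest, and the difference of 0.66 had an interval of -0.27 to 1.58 (adjusted p = 0.349). By 1421486_at the difference of Egr3 was 0.15, with levels of 4.82 ± 0.49 and 4.97 ± 0.18.

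The 5 other genes whose pattern over the 6 arrays was most like that of Egr1 were Dedd, Tm9sf3, Nedd4, Rpn1 and Erp44, by the mean absolute difference of centred log2 values over 19093 probe sets above the median level. These mean distances were 0.04, 0.05, 0.06, 0.07 and 0.07 log2 units, and the differences between the groups were 0.74 to 0.89. Tm9sf3, Nedd4 and Rpn1 passed the test with adjusted p of 0.0468, 0.0491 and 0.0431, and Dedd and Erp44 had adjusted p of 0.0697 and 0.0674. They were chosen for values near those of Egr1, so their sizes and adjusted p-values add nothing about it.

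The NR4A receptor genes had negative differences by their brightest probe sets, and none passed. Nr4a1, which encodes NUR77, read 8.03, 6.61 and 7.65 in NTG and 7.29, 6.80 and 7.71 in SMC-IRF9-TG. The SMC-IRF9-TG pools lay within the NTG range, with pool 2 the lowest in each group, and the difference was -0.16 (95% interval -1.03 to 0.72, adjusted p = 0.815 from limma). This interval includes a fall to 0.489 of the NTG level and a rise of 1.64-fold. The sign of Nr4a1 turned without NTG pool 1 (0.14) and without SMC-IRF9-TG pool 2 (0.07).

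Nr4a2, which encodes NURR1, was measured by 6 probe sets that did not point one way. The brightest, 1447863_s_at, whose suffix marks probes shared with other transcripts in Affymetrix naming, read 6.57, 6.32 and 6.08 in NTG and 5.47, 5.95 and 5.79 in SMC-IRF9-TG. The highest SMC-IRF9-TG pool lay below the lowest NTG pool, and the difference was -0.59 (SE 0.22, 95% interval -1.09 to -0.09, adjusted p = 0.175 from limma, exact permutation p = 0.1). Of the other 5 probe sets, 1433422_at, 1433423_at and 1450749_a_at had differences of -0.35, -0.19 and -0.27, and 1450750_a_at and 1455034_at had 0.42 and 0.28, all with overlapping groups. Nr4a3, which encodes NOR1, had negative differences by all 3 of its probe sets. It read 5.78, 5.78 and 5.08 in NTG and 5.86, 4.38 and 5.03 in SMC-IRF9-TG by 1438796_at, with overlapping groups (difference -0.45, 95% interval -1.31 to 0.40, adjusted p = 0.475). By 1421080_at it read 5.11, 5.37 and 5.11 in NTG and 4.89, 4.70 and 4.81 in SMC-IRF9-TG, where the groups did not overlap, with a difference of -0.40 (adjusted p = 0.245). The remaining one, 1421079_at, was under the lower quartile of the arrays in both groups (2.16 and 1.78) and may not lie above background. The retinoid X receptors, with which NR4A1 and NR4A2 can pair, did not pass either: Rxra, Rxrb and Rxrg had differences of -0.27, -0.25 and -0.56.

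**Figure D3:**
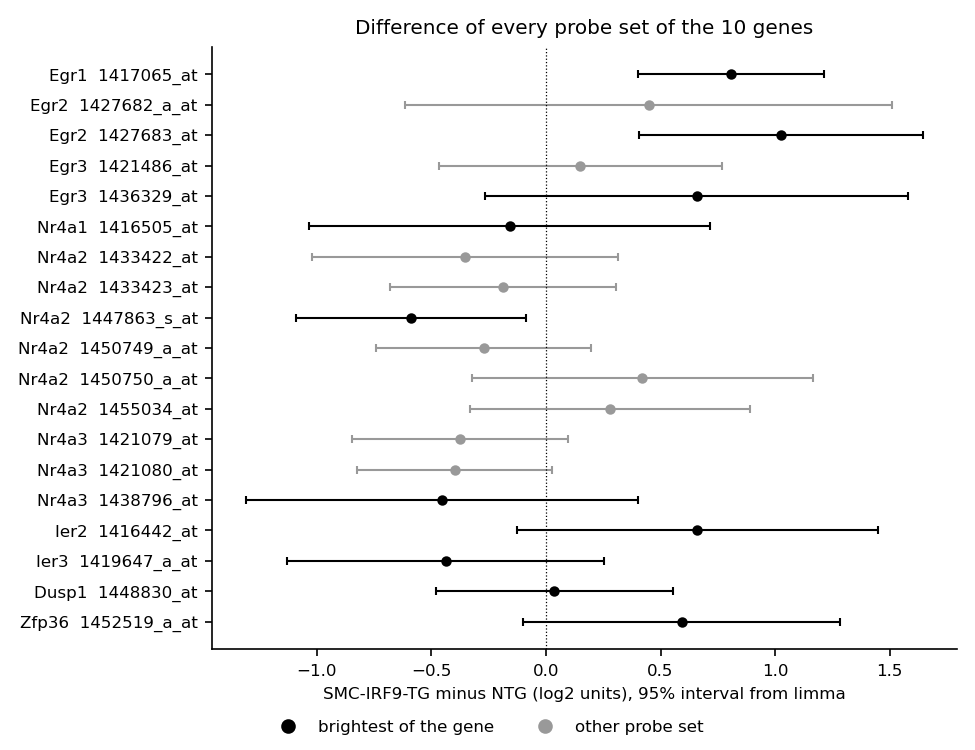
Difference of each of the 19 probe sets (x axis, SMC-IRF9-TG minus NTG in log2 units) with its 95% interval from limma, not adjusted for the number of tests. Black points are the brightest probe set of a gene and grey points are the others. The intervals of Egr1, of Egr2 by 1427683_at and of Nr4a2 by 1447863_s_at exclude 0, and those of the other 16 include it.

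Over the 19 probe sets the groups did not overlap in 5, of which 2 were higher and 3 lower in SMC-IRF9-TG. Over all probe sets every SMC-IRF9-TG pool lay above every NTG pool in 12.1% and below in 19.2%, so these counts are near the background. The signs were nearly even, with 10 positive and 9 negative.

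Ier2, a nuclear protein gene, and Ier3, whose product (IEX-1) bears on cell survival, differed in sign. Ier2 read 6.46, 5.55 and 5.54 in NTG and 6.09, 6.32 and 7.13 in SMC-IRF9-TG, and the group ranges overlapped because of NTG pool 1 (difference 0.66, 95% interval -0.13 to 1.45, adjusted p = 0.284 from limma). Ier3 read 6.71, 6.56 and 5.92 in NTG and 6.18, 6.27 and 5.42 in SMC-IRF9-TG (difference -0.44, 95% interval -1.13 to 0.25, adjusted p = 0.398). Pool 3 was the lowest of each group for Ier3 and the highest of SMC-IRF9-TG for Ier2.

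The feedback genes Dusp1 and Zfp36 are known to limit the same signals that induce them. Dusp1 read 10.39, 10.40 and 10.18 in NTG and 10.48, 9.97 and 10.63 in SMC-IRF9-TG. Its SMC-IRF9-TG pools enclosed all NTG pools, and the difference of 0.04 had a 95% interval of -0.48 to 0.55 (adjusted p = 0.934 from limma). It was the 1 gene whose interval stayed within 1 log2 unit in both directions. Zfp36 read 6.94, 6.46 and 7.17 in NTG and 7.59, 6.88 and 7.88 in SMC-IRF9-TG, where 2 SMC-IRF9-TG pools exceeded all NTG pools (difference 0.59, 95% interval -0.10 to 1.28, adjusted p = 0.276).

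The SMC-IRF9-TG pools differed among themselves in several of these genes. The median SD of the 10 genes was 0.48 in SMC-IRF9-TG and 0.30 in NTG, whereas over all genes it was 0.19 and 0.34. The SD was larger in SMC-IRF9-TG than in NTG for 7 of the 10 genes and for 25.8% of all genes, and 9 of the 10 (all but Egr1) exceeded the SMC-IRF9-TG median of all genes. For Egr2, Egr3, Nr4a1, Dusp1 and Zfp36 pool 3 was highest, pool 1 lay between and pool 2 was lowest, an order seen in 20.7% of all genes and looked for after the values were seen. Pool 2 lay below the mean of its group by 0.94 for Egr3, 0.57 for Zfp36, 0.47 for Egr2, 0.46 for Nr4a1 and 0.39 for Dusp1. Egr1, Nr4a2, Nr4a3, Ier2 and Ier3 did not follow this order, and pool 2 was the highest of the 3 for Egr1, Nr4a2 and Ier3.

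**Figure D4:**
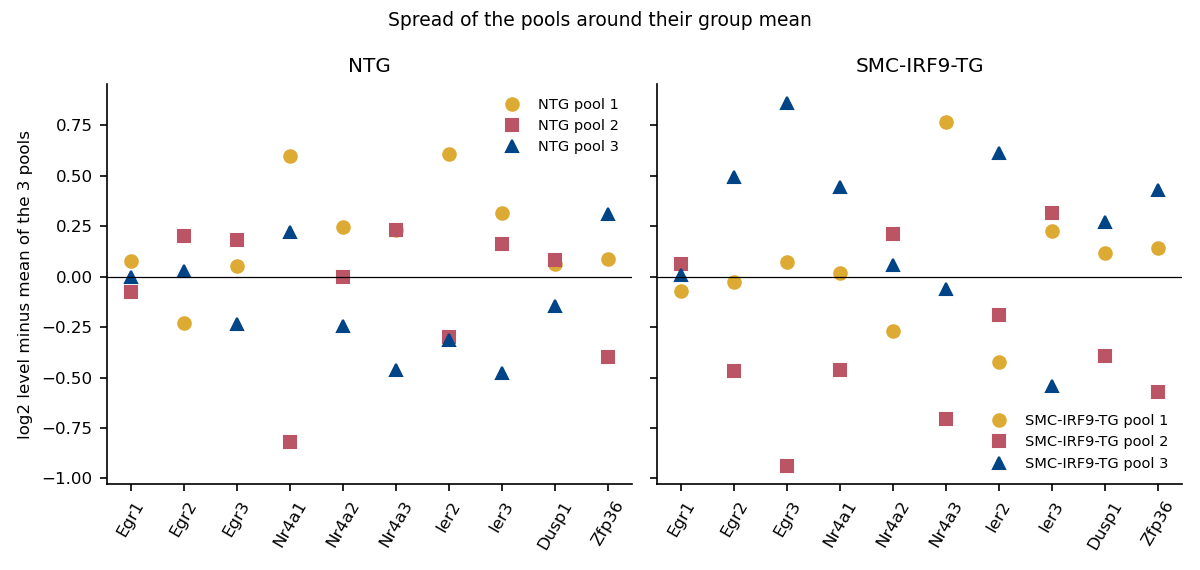
Log2 level of each pool minus the mean of its group (y axis) for the brightest probe set of the 10 genes (x axis), with NTG on the left and SMC-IRF9-TG on the right. In SMC-IRF9-TG pool 3 (triangles) is highest for 6 genes and pool 2 (squares) is lowest for 6, against 33.5% and 41.9% of all probe sets. In NTG pool 3 is lowest for 6 genes, against 28.9% of all probe sets. The SMC-IRF9-TG pools of Egr1 nearly coincide.

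Neutrophil markers also differed between the SMC-IRF9-TG pools. Their summed linear level over 7 genes was 837, 1763 and 95.1, and in NTG it was 98.9 to 109, and none of the 7 passed between the groups in limma. Without SMC-IRF9-TG pool 3, 5 of them passed (S100a8, S100a9, Mpo, Camp and Ngp, all higher). Macrophage markers differed between the groups, with 11 of 12 higher and a summed linear level of 196 to 337 in NTG and 3949 to 5271 in SMC-IRF9-TG, and so did fibroblast markers, with 5 of 7 higher and 3096 to 3835 against 12943 to 13402. The calls of Lum, Col1a1 and Col1a2 held without any single pool. Pdgfra passed only without NTG pool 2, and Dcn only without SMC-IRF9-TG pool 3, among those 6 fits. With the block for low poly-A signal 5 macrophage and 2 fibroblast markers were called, and with that for high Xist 10 and 2. Of the macrophage markers, 2 had a group mean under the lower quartile of the arrays. Endothelial markers, 1 of 8 higher, summed to 599 to 1784 in NTG and 968 to 1194 in SMC-IRF9-TG. That call, Tie1, was lost without NTG pool 3 or any 1 pool of SMC-IRF9-TG. Their part in the levels of the 10 genes was not tested.

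Genes around the 10 were followed in 9 lists, which named 127 members and measured 118, each by its brightest probe set. Tnf, Vegfa, Ccl2, Ccnd1 and Ptgs2 count in more than 1 of these lists. On the same terms 3.11% of all genes were higher and 0.511% lower. With limma and a block for the pools of low poly-A signal, 0 of the calls below held in any of the 9 lists, and the block for high Xist kept only those of Klf10, Hes1, Ptgs2, Thbs1, Elk3 and Il10. Among 22 other transcription regulators of the immediate-early class, 3 rose, 1 fell and 18 did not pass, with a median difference of 0.39. Tsc22d3, a glucocorticoid-induced gene, rose by 1.83 (adjusted p = 0.027 from limma), while its other 3 probe sets did not pass, at 1.23, 0.33 and -0.30. Klf10, a TGF-β-induced factor, rose by 1.57 (adjusted p = 0.014) and Id1, an inhibitor of basic helix-loop-helix factors, by 1.49 (adjusted p = 0.010). Hes1, a Notch target, fell by 2.10, and this call held without any single pool. The 3 calls of genes that rose became 0 without SMC-IRF9-TG pool 2, 1 without SMC-IRF9-TG pool 1 and 2 without SMC-IRF9-TG pool 3 or NTG pool 1. Id1 and Hes1 are also on the study's list from these samples, and Hes1 is among its real-time PCR primers. Egr4, the remaining EGR gene, had a difference of -0.31. Atf3, a stress-induced factor, had one of -1.10 (adjusted p = 0.057). Egr4 and Atf3 were picked after seeing their values.

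Of 26 measured immediate-early genes of signalling and secretion, 5 were higher and 21 did not pass (median 0.37). Thbs1, which encodes thrombospondin 1, rose by 3.63, from 5.75, 5.72 and 4.54 in NTG to 9.21, 8.60 and 9.10 in SMC-IRF9-TG (adjusted p = 0.002), and its other probe set by 2.42. The regulators of G protein signalling rose as well, Rgs1 by 2.32 and Rgs2 from a mean of 5.37 to one of 7.36. Ptgs2, which encodes cyclooxygenase-2, rose by 2.19. Other probe sets of Rgs2 and Ptgs2 did not pass, at 1.08, -0.25 and 1.24 for Rgs2 and 0.39 for Ptgs2. The fifth was Gadd45a, a stress-response gene, whose NTG level was under the lower quartile. The 5 calls became 3 without SMC-IRF9-TG pool 3 and 4 without NTG pool 1, SMC-IRF9-TG pool 1 or SMC-IRF9-TG pool 2. Of the 6 fits that each left out a pool, Rgs1 passed in 4 and Gadd45a in 3. Thbs1, Rgs2 and Ptgs2 passed in all 6.

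Upstream of the 10 genes, 1 of 14 measured SRF, ternary complex and ERK genes passed, with a median of 0.32. This was Elk3, a ternary complex factor, which rose by 1.28 (adjusted p = 0.032), while its other 3 probe sets did not pass, at -0.19, 0.68 and -0.01. The call was lost with the mean of its probe sets and after quantile normalization. It still passed without NTG pool 2 or NTG pool 3, but not without any 1 of the other 4 pools. Neither of the 2 EGR corepressors passed: Nab1 had a difference of -0.18, and Nab2, itself a target of EGR factors, read 4.84, 2.64 and 4.36 in NTG and 5.29, 4.96 and 5.45 in SMC-IRF9-TG (difference 1.29, adjusted p = 0.185). Of 9 other dual-specificity MAP kinase phosphatases, Dusp6, which acts on ERK, rose by 1.56, from 6.34 ± 0.22 to 7.90 ± 0.26 (adjusted p = 0.011), and 8 did not pass (median 0.43). Dusp6 no longer passed without SMC-IRF9-TG pool 1 or pool 3.

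Downstream, 4 of 15 genes known as EGR1 targets in the artery wall were higher and 11 did not pass, with a median of 0.92. After quantile normalization 2 of the 15 were called. The mean levels of the 15 ran from 2.05 (Fgf2) to 7.91 (Pdgfa). Over all probe sets the median difference was -0.30 for levels from 2 to 2.5 and 0.26 for levels from 7.5 to 8. The part of level in these calls was not tested. Cd44, a hyaluronan receptor, rose by 2.14 and Fn1, which encodes fibronectin, by 2.06. The chemokine gene Ccl2 rose by 1.33 and Ccnd1, which encodes Cyclin D1, by 1.23. The NTG mean of Ccl2 (2.65) lay close to the mean lower quartile of the NTG arrays (2.62). The study's list from these samples also holds Fn1, Ccl2 and, by a probe set that the annotation used here does not assign to it, Ccnd1. The study's real-time PCR primers include Fn1 and Ccnd1, and it reports that PCR of such arteries at 14 days bore out its array results. It also reports more Cyclin D1 protein in injured SMC-IRF9-TG arteries. When any 1 pool of SMC-IRF9-TG was left out, 1 of the 4 calls held, that of Fn1. Cd44 was also lost without NTG pool 1 or NTG pool 3, where Pdgfb and Pdgfa passed in its place. Pdgfa and Tgfb1, growth factor genes picked with their values in view, had differences of 1.09 (adjusted p = 0.121) and 1.23 (adjusted p = 0.060).

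Of 14 mRNAs known as targets of ZFP36, 6 rose and 1 fell, and the remaining 7 did not pass (median 0.69). Ptgs2, Ccl2 and Ccnd1, already named above as calls of other lists, and Il1b were among those higher. Il1b rose by 2.17 (adjusted p = 0.008) and Myc by 1.71 (adjusted p = 0.047). The study's list holds Il1b, Myc and Il10 too. Il10 was lower, at a SMC-IRF9-TG level under the lower quartile. Il6, named outside the rule, was higher from an NTG mean of 1.85, which is also under the lower quartile. The 6 higher calls became 4 without NTG pool 1 and 2 when any 1 pool of SMC-IRF9-TG was left out. Of 13 measured relatives of Zfp36 and genes of AU-rich mRNA decay, Cnot6, a deadenylase, rose by 0.97 (adjusted p = 0.040), and 12 did not pass. Its other 3 probe sets read 0.59, 0.52 and 0.57 and did not pass, and the call was lost with their mean, with the trended robust prior and after quantile normalization. Of the 6 fits that each left out a pool, the call of Cnot6 held in 1, the fit without NTG pool 2. The closest relatives Zfp36l1 and Zfp36l2, named outside the rule, had differences of -0.02 and 1.10.

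**Figure D5:**
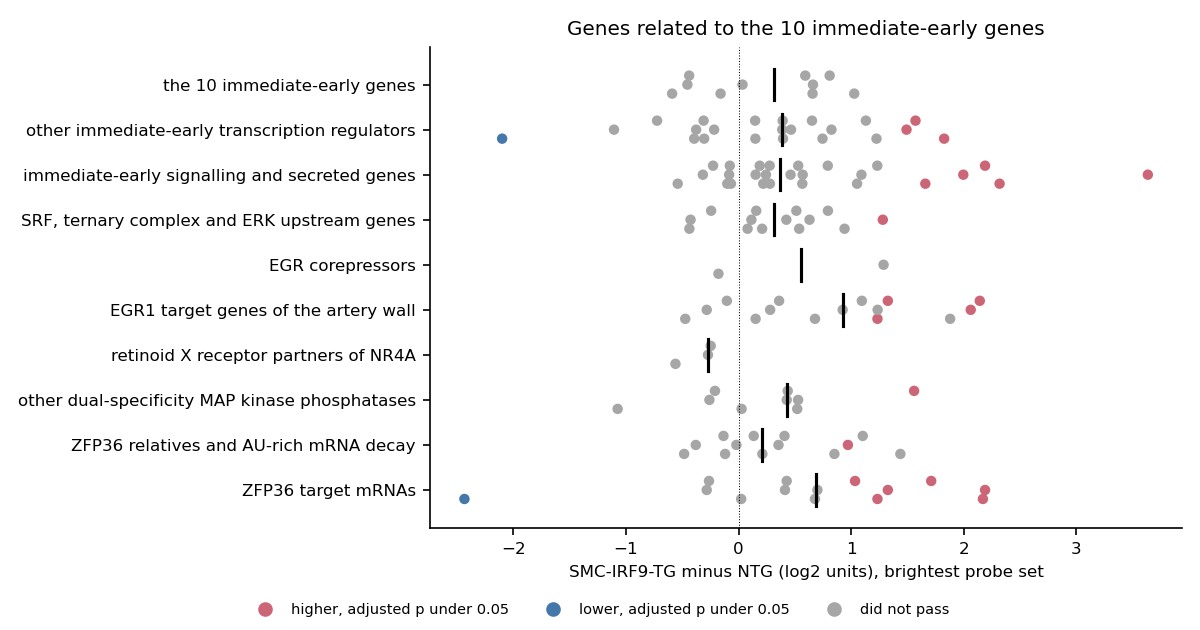
Difference of each gene (x axis, SMC-IRF9-TG minus NTG in log2 units, brightest probe set) in the 10 immediate-early genes and in 9 lists of related genes (y axis). Coloured points passed at an adjusted p under 0.05, grey points did not, and the vertical bars are medians. All 10 immediate-early genes are grey and lie between -0.59 and 1.03, while Thbs1 reaches 3.63 and Il10 lies at -2.43.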

How the data were processed

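Carotid arteries collected 14 days after wire injury were measured on 6 Affymetrix arrays, 3 pools each of NTG and SMC-IRF9-TG mice, grouped by the sample titles. The authors deposited log2 levels made with RMA in Affymetrix Expression Console, per the labels. Their versions are not stated in those sources. Detection above background was not checked. Of 45101 probe sets, 64 controls were left out. Of the remaining 45037, 34945 name 1 gene in the array annotation, 932 several and 9160 none here.

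Groups were compared with limma 3.58.1 (lmFit, eBayes, R 4.3.3) on all probe sets, 2-sided, with Benjamini-Hochberg adjustment. The study's methods give a t-test for all its data, which was run as an alternative. Intervals of 95% are unadjusted. Tables and figures were made in Python 3.11.15 (matplotlib 3.10.9, numpy 2.4.6, pandas 2.3.3, scipy 1.17.1). The code was tested on simulated data. A gene is represented by its probe set of highest mean. Named are all 10 genes, up to 4 passing genes of each related list (2 of highest level where none passes) and the 5 most like Egr1, and exceptions are marked. The genes and lists were chosen with earlier results of these data known. Older symbols were matched through RefSeq. The 6 arrays limit the precision. Alternatives were median centring, quantile normalization, no dim probe sets, another variance prior, array weights, the t-test, a replicate block, a block for the pools of high Xist, a block for those of low poly-A signal, single pools left out, gene means and other thresholds.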

Additional observations from a re-analysis of the deposited data

How the results depend on the processing

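The 1237 probe sets called over the array fell to 192 with a block for high Xist and 55 with one for low poly-A controls, each of which leaves 1 pool to carry its group, to 700 after quantile normalization, 291 at a threshold of 0.01 and 1 by the methods' t-test, and rose to 2864 at a threshold of 0.1 and 8364 by the unadjusted t-test. Leaving out single pools gave 320 to 1851. Among the 10 genes, 1 (Egr1) was called higher after median centring, with the trended robust prior and with gene means, 2 (Egr1 and Egr2) at a threshold of 0.1, and 2 higher and 1 lower by the unadjusted t-test. Of the 19 probe sets, 1 was called higher after median centring and with that prior, 2 at a threshold of 0.1, and 2 higher and 2 lower by the unadjusted t-test. Leaving out single pools called 0 of the 10 genes and 0 of the 19 probe sets in either direction, with the adjusted p of Egr1 from 0.0595 to 0.211. The cause was not tested.

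Signs turned for genes that did not pass: Dusp1 to -0.22 after quantile normalization and to -0.04, -0.02 and -0.10 without NTG pool 3, SMC-IRF9-TG pool 1 and SMC-IRF9-TG pool 3, Nr4a1 to 0.28 with the poly-A block and to 0.14 and 0.07 without NTG pool 1 and SMC-IRF9-TG pool 2, and Ier3 to 0.038 and Nr4a3 to 0.010 with the Xist block. Without single pools Dusp1 ran from -0.10 to 0.23 and Nr4a1 from -0.57 to 0.14. Egr1, Egr2, Egr3, Ier2, Zfp36 and Nr4a2 kept their sign in every alternative run, Egr1 from 0.55 to 0.90. The brightest Egr2 probe set lies below the median level of all probe sets and has no value where those were left out. Deviations of same-numbered pools correlated at -0.15 to 0.027 over all probe sets, which gave no sign of pairing by replicate number but cannot exclude it. With the replicate numbers as a block 730 probe sets and 0 of the 10 genes were called. Of 342 counts of calls in related lists, 251 were equal, 73 lower and 18 higher than reported. With the poly-A block every list had 0 calls. With the Xist block the higher calls of EGR1 targets went from 4 to 0, of ZFP36 targets from 6 to 1, and of the other phosphatases and of AU-rich decay from 1 to 0.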
